A study of Homo sapiens with 32 samples.

Results

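The regions described are the acetylated regions of 40 genes for glutamate receptors and for the proteins that hold those receptors at the postsynaptic membrane, in the neuroblastoma cell line SK-N-BE(2)C. A region was taken where the nearest protein-coding start site within 100 kb belonged to a listed gene, or where the region overlapped the body of a listed gene. The rule found 402 of 92092 regions, 248 by the nearest start site and 154 by the gene body only, and they fell to 36 of the 40 genes. No region was found for GRIA3, GRIK1, GRM3 or GRM5. A region lying in a long intron is a position, and which gene it acts on was not measured.

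SK-N-BE(2)C is an established human line of adrenergic type with an amplified MYCN gene. The cells were cultured for 5 days with palbociclib at 1 µM (PB), a CDK4/6 inhibitor, with retinoic acid (RA), with both drugs (PB+RA), or with the solvent DMSO, and H3K27ac, the acetylation of lysine 27 on histone H3 that marks active promoters and enhancers, was mapped by chromatin immunoprecipitation and sequencing. Each group had 4 libraries from separate cultures of this single line. The comparisons ask what each drug, and the pair, does to H3K27ac at regions of neuronal genes. The study reports extensive neurite growth with PB and with PB+RA, limited differentiation with RA alone and incomplete cell-cycle arrest with PB. None of these was measured in these libraries.

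Glutamate is the main excitatory transmitter of the brain, and its ionotropic receptors are tetrameric cation channels of the AMPA (GRIA), kainate (GRIK) and NMDA (GRIN) classes, with the delta receptors (GRID) as relatives that bind cerebellins in the synaptic cleft. The metabotropic receptors (GRM) act through G proteins. Inside the spine the MAGUK proteins (DLG) bind receptor tails, DLGAP proteins link them to SHANK and HOMER, and neuroligins (NLGN) reach across the cleft to the presynaptic neurexins.

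Sequences are shown for 5 places on which the results turn, read from the GRCh37 (hg19) reference genome, 5′ to 3′ on the strand given. The first set is the 250 bases just upstream of the start sites of GRIK3 (chr1:37500117-37500366, minus strand, 73.6% GC), GRID1 (chr10:88126553-88126802, minus strand, 79.2% GC) and GRIN1 (chr9:140033356-140033605, plus strand, 71.6% GC), 3 receptor genes whose start-site regions fell. The second is the central 300 bases of a GRIK2 region (chr6:101828334-101828633, plus strand, 36.7% GC) and a DLG1 region (chr3:196847296-196847595, plus strand, 32.7% GC) that carried no peak in any DMSO library. Capitals mark CAGCTG, an E-box read by neuronal bHLH factors.
GRIK3 upstream: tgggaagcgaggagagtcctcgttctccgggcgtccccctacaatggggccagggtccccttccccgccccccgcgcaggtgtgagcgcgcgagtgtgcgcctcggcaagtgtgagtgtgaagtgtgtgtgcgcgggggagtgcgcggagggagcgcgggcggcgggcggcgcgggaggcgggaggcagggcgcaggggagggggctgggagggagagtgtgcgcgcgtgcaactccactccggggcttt
GRID1 upstream: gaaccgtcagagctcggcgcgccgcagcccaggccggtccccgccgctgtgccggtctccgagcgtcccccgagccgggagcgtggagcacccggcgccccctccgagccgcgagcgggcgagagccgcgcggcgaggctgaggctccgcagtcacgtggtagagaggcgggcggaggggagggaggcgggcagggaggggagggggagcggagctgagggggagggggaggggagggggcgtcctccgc
GRIN1 upstream: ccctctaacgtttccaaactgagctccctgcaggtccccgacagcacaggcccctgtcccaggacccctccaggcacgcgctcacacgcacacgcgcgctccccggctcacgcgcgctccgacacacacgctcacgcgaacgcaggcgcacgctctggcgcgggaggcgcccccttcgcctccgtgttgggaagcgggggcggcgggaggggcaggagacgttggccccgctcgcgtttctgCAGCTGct
GRIK2 region centre: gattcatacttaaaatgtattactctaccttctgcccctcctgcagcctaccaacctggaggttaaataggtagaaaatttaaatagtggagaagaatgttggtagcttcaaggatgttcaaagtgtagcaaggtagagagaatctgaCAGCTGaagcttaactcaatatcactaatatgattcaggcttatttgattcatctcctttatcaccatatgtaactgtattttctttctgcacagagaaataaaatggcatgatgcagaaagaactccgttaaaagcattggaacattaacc
DLG1 region centre: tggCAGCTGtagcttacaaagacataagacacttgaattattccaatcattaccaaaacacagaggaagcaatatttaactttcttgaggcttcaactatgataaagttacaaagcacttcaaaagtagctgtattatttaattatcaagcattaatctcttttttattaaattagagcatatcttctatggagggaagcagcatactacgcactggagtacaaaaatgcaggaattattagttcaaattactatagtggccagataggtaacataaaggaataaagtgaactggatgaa
The 3 upstream sequences are long runs of G and C, and both region centres are rich in A and T.

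The E-box was searched on both strands in 300 bases about the start site, 250 before it and 50 after. It was present at 4 of 40 members (GRIK4, GRIN1, GRM5 and NLGN2), or 10.0%, against 17.7% of 19867 protein-coding genes. An AP-1 site (TGACTCA or TGAGTCA) was present at GRM6 only, or 2.5% of members against 3.56% of genes, and an E2F site (TTTCCCGC, TTTGGCGC, TTTCGCGC or TTTGCCGC) at DLGAP2 and GRIN3A, or 5.0% against 4.37%. Neither the retinoic acid receptor element DR5 nor the core of the REST repressor site matched any member start site, even with 1 mismatch for REST. These matched 0.0554% and 0.272% of all genes, and at such shares 40 start sites cannot show a lack. In the central 300 bases of the regions CAGCTG was found in 83 of 402 member regions (20.6%) against 18.3% of all regions, and an AP-1 site in 32 (7.96%) against 7.28%. DR5 was found in 1 member region (0.249%), at GRIK2 (chr6:101868919-101869374), against 0.124% of all regions. An E2F site was found in 2 (0.498%) against 0.925%, and the exact REST core in none, against 0.0239%. No overlap between these motifs was removed, and a match is a string of letters only.

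Values per library are the fold enrichment over input of the deposited peaks, averaged over the bases of a region with 1 for bases under no peak, and scaled so that regions with a peak in every library have a common median. These values are called enrichment below. A region was called at an adjusted p under 0.05 and a log2 difference beyond 0.5 in size, in a limma fit over all regions, and errors on log2 differences are standard errors with n = 4 libraries a group. Where a group had no peak at all, the difference depends on the value of 1 set for it. Where no DMSO library had a peak, treated libraries alone brought the region into the consensus. A rise from DMSO there is not independent of that choice. The deposited tables also give a mean log2 concentration for each group, printed below as differences between the authors' group means, which carry no error. Read depth per library is unknown, since the files hold no counts, and in these bulk cultures fewer acetylated cells and less acetylation per cell cannot be told apart.

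The libraries held 64516 to 104392 peaks, and 204 to 250 of the 402 member regions had a peak in each PB library, 214 to 247 in RA, 205 to 265 in PB+RA and 202 to 267 in DMSO. In DMSO all 10 adrenergic markers had a start-site peak in 4 of 4 libraries, as did 6 of 8 mesenchymal and Schwann markers, 1 of 6 immune markers and 2 of 4 endothelial markers. GC-rich regions set some libraries apart. Of all regions with at least 65% GC, 30.7% to 37.4% had a peak in PB libraries, 54.3% to 84.1% in RA libraries, 31.8% to 38.2% in PB+RA replicates 1 to 3 and 66.5% in PB+RA replicate 4, against 54.4% to 78.9% in DMSO libraries. The 26 member regions in that range had a peak 9, 11, 13 and 10 times in the PB libraries, 14, 19, 23 and 23 in RA, 11, 15, 11 and 22 in PB+RA, and 15, 16, 21 and 22 in DMSO. DMSO and RA replicates 3 and 4 thus stood above replicates 1 and 2. The part of GC content in the falls below was not tested, and the GC of a region is given beside its result.

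Over all 402 member regions, falls outnumbered gains with RA alone, except with the highest peak in place of the mean (18 rises and 16 falls), and the directions were about even with the pair. With PB 16 regions rose and 23 fell, 3.98% and 5.72% of the members, where 4.95% and 4.47% of all regions were called up and down. Leaving out single libraries gave 10 to 18 rises (10 without DMSO replicate 2) and 10 to 33 falls with PB (10 without DMSO replicate 4, 33 without DMSO replicate 3), values without scaling gave 7 and 20, and values centred within 10 classes of GC content gave 20 and 6. With RA 26 rose and 44 fell, 6.47% and 10.9%, against 10.2% and 6.56% of all regions. With PB+RA 69 rose and 65 fell, 17.2% and 16.2%, against 18.2% and 12.1%. Both the rises and the falls with PB+RA lay in 20 genes. PB gave the members a median concentration difference of −0.09, RA one of −0.16 and PB+RA one of −0.24, against −0.09, −0.01 and −0.02 over all regions. Gains with each treatment were below the share over all regions, and falls above it, but with GC centring this turned for PB, where 4.98% of members rose and 1.49% fell against 3.61% and 2.08% of all regions. With PB+RA the centred rises were 13.4% of members, against 11.8% of all regions, and the falls 12.9% against 11.3%.

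Start sites and distal regions moved differently. Among 53 regions within 3 kb of a member start site, in 31 genes, 1 rose and 7 fell with PB, 1 rose and 6 fell with RA, and 4 rose and 13 fell with PB+RA. The rises and falls were 1.89% and 13.2% of them with PB, 1.89% and 11.3% with RA, and 7.55% and 24.5% with PB+RA. Of 19896 start-site regions in the whole series 2.08% rose and 9.19% fell with PB, 6.22% and 4.72% with RA, and 9.69% and 17.3% with PB+RA. Their median concentration difference was −0.54 in PB, −0.07 in RA and −0.42 in PB+RA, against −0.37, −0.15 and −0.22 at all start sites. Among the 349 distal regions 15 rose and 16 fell with PB (4.3% and 4.58%), 25 and 38 with RA (7.16% and 10.9%), and 65 and 52 with PB+RA (18.6% and 14.9%). Over all distal regions the shares were 5.75% and 3.17% with PB, 11.3% and 7.06% with RA, and 20.5% and 10.7% with PB+RA. GC centring turned the balance at member start sites, to 3 rises and 1 fall with PB and 10 rises and 7 falls with PB+RA. Without single libraries the start-site falls were 3 to 7 with PB (3 without DMSO replicate 4) and 9 to 13 with PB+RA. GC centring turned the median concentration difference of the member start sites to 0.18 in PB, 0.12 in RA and 0.28 in PB+RA.

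Called regions differed in base composition in the members as in the whole series. The median GC of member regions that rose was 44.2% in PB, 44.5% in RA and 41.5% in PB+RA, and of those that fell 59.5%, 52.5% and 54.1%. Over all regions the medians were 41.1%, 42.1% and 40.5% for rises and 56.9%, 47.5% and 53.6% for falls.

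**Figure D1:**
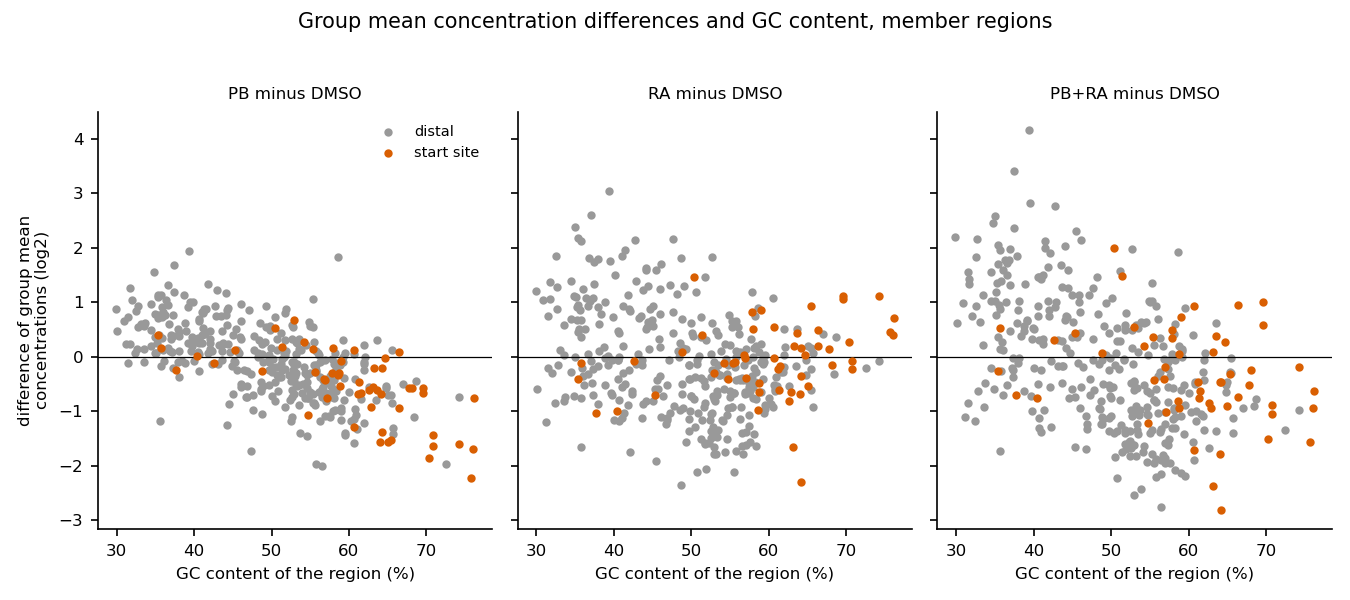
Difference of the authors' group mean log2 concentration from DMSO (vertical) against the GC content of the region in percent (horizontal) for the 402 member regions, in a panel each for PB, RA and PB+RA, with start-site regions in orange and distal regions in grey. The start-site regions lie towards the GC-rich end, where the PB and PB+RA differences are mostly below 0.

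The counts of rises and falls differed among the receptor classes, and no test between classes was run. Distal gains with PB+RA were most numerous at kainate genes (17 of 72 distal regions, 23.6%), AMPA genes (12 of 37, 32.4%) and group III metabotropic genes (11 of 39, 28.2%), with 4, 6 and 3 distal falls, where 20.5% of all distal regions rose and 10.7% fell. Over start-site and distal regions together the delta receptor gene GRID1 had 24 of 56 down and 2 up, and the NMDA subunit genes 7 of 27 down and 2 up. GC centring turned the direction of the AMPA genes, to 6 rises and 11 falls against 12 and 7 of 41. It gave 13 and 4 at kainate genes (18 and 6 of 79 without it), 6 and 3 at group III genes (11 and 5 of 46) and 0 and 18 at GRID1. It gave 1 and 3 at NMDA genes, 12 and 0 at SHANK genes and 3 and 7 at DLG genes. With GC centring 11.8% of all regions rose and 11.3% fell. Counting only peaks with −log10 q of at least 3, 3 of 79 kainate regions rose and 2 fell, and 3 of 41 AMPA regions rose and 1 fell. The group III genes then gave 4 and 1 of 46, GRID1 0 and 7 of 56 and the NMDA genes 1 and 7 of 27. Of all regions 6.62% rose and 4.71% fell with these stricter peaks, and the kainate rises were under that share. Without single libraries the rises with PB+RA were 17 to 21 at kainate genes, and the SHANK rises as few as 4 (without DMSO replicate 1), the HOMER rises 2 (without DMSO replicate 1), the group III falls 1 (without PB+RA replicate 1) and the AMPA falls 3 (without PB+RA replicate 2). The 251 receptor regions together gave 45 rises and 49 falls with PB+RA, and the 145 regions of intracellular scaffolds 22 and 15. Among scaffolds, the SHANK genes had 8 of 52 regions up and 5 down (15.4% and 9.62%), and the DLGAP genes 8 of 49 and 5 (16.3% and 10.2%). The HOMER genes had 4 of 18 and 2 (22.2% and 11.1%), and the DLG genes 2 of 26 and 3 (7.69% and 11.5%). Over all regions 18.2% rose and 12.1% fell with PB+RA.

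**Figure D2:**
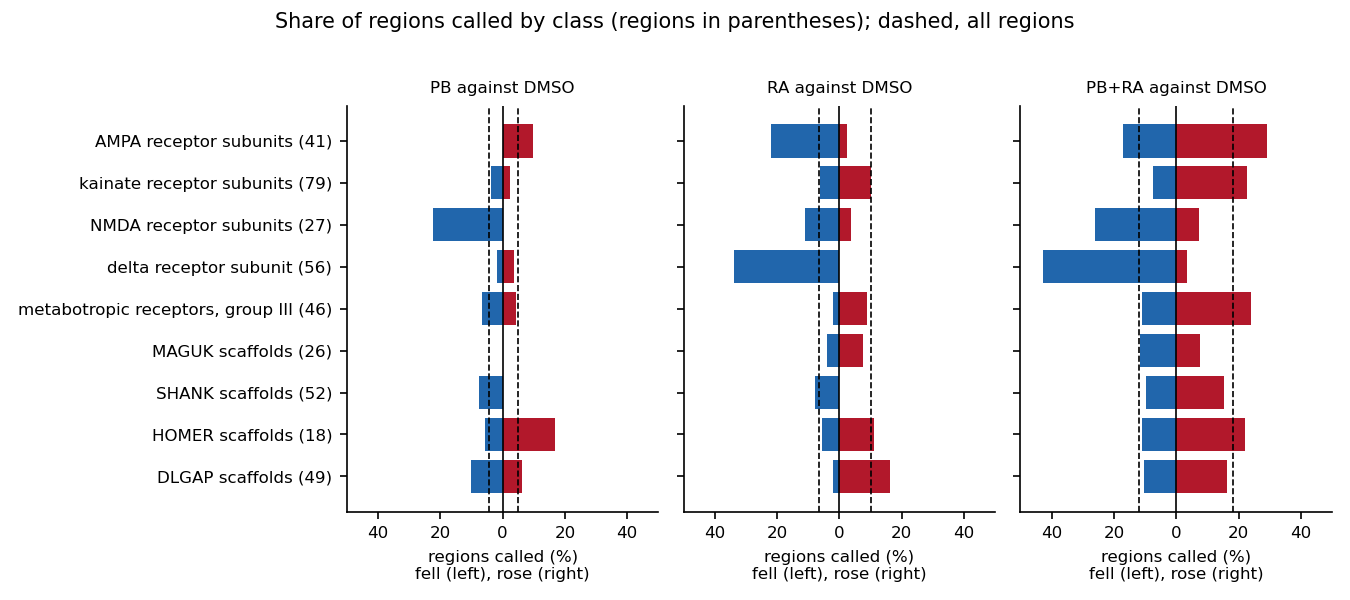
Share of regions called down (blue, to the left) and up (red, to the right) against DMSO in percent, for 9 classes of member genes, in a panel each for PB, RA and PB+RA; dashed lines give the share over all 92092 regions. With PB+RA the AMPA (29.3%), group III (23.9%), kainate (22.8%) and HOMER (22.2%) bars reach past the line for rises at 18.2%, and the delta (42.9%), NMDA (25.9%) and AMPA (17.1%) bars past the line for falls at 12.1%.

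In DMSO, the strongest member start-site region per base was the first start of DLG1, with a mean enrichment of 16.1. It was followed by GRID1 (12.8), GRIK2 (12.1), HOMER2 (11.4), GRIA4 (10.2), SHANK2 (9.88) and NLGN2 (9.13), and the libraries of neighbours in this order overlapped. The low end included GRM6, GRIA2, GRIN3B, NLGN1, NLGN3, SHANK1 and GRM4. Their start-site region with the highest mean concentration did not have a peak in every DMSO library. GRIN2A, GRIN2B, GRIN3A, DLGAP1 and DLGAP2 had distal regions only.

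AMPA receptors carry most fast excitatory transmission. Their regions lay at GRIA1 (20 regions), GRIA4 (19) and GRIA2 (2), whose edited subunit makes the channel impermeable to calcium. GRIA1 gained distal acetylation with PB+RA, while GRIA4 lost it with RA and with PB+RA. The largest gain lay in a wide region near the 3′ end of GRIA1 (chr5:153151863-153165561, 42.7% GC, in an intron 280 kb from a start site). Its enrichment was 2.54, 2.84, 2.33 and 2.90 in PB, 5.59, 6.23, 4.24 and 4.37 in RA, and 7.78, 6.72, 8.01 and 5.26 in PB+RA, against 1.48, 1.63, 1.48 and 1.59 in DMSO. Every treated library lay above every DMSO library, and every RA and PB+RA library above every PB library. The log2 differences were 0.78 ± 0.18 with PB (adjusted p = 0.00809), 1.71 ± 0.18 with RA (8.26e-07) and 2.15 ± 0.18 with PB+RA (2.11e-08), and PB+RA exceeded PB by 1.37 (1.4e-05). The difference between PB+RA and RA was 0.44 ± 0.18 and was not called. The PB call was lost without scaling and with the highest peak in place of the mean.

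GRIA1 had 9 of 20 regions up and 1 down with PB+RA, 1 up and 3 down with RA and 1 up with PB. The shares over all regions were 18.2% and 12.1% with PB+RA, 10.2% and 6.56% with RA, and 4.95% up with PB. Of the 20 GRIA1 regions 9 had no peak in any DMSO library. With GC centring 5 of the 9 rises with PB+RA were still called, and with the stricter peaks 3. Of the 9 rises 7 lay over 100 kb from any start site, with log2 differences of 0.64 to 2.15. An intronic region that fell with RA (chr5:152938201-152940996) had 3.70, 4.0, 3.78 and 1.38 in PB, 1.27, 1, 1 and 1 in RA, and 2.16, 1.35, 1.40 and 1.72 in PB+RA, against 2.69, 3.47, 3.67 and 2.11 in DMSO. All 4 RA libraries lay under all 4 DMSO libraries, a log2 difference of −1.46 ± 0.29 (adjusted p = 0.00106), and with PB+RA it was −0.84 (0.032), a call lost with the stricter or the highest peaks and without DMSO replicate 2 or 3 or PB+RA replicate 2 or 3. The RA call there was lost with the stricter peaks. The GRIA1 start site (chr5:152869461-152874430, 45.3% GC) had 6.08, 3.92, 6.11 and 4.92 in PB, 2.54, 3.29, 2.92 and 3.04 in RA, and 5.30, 4.16, 6.66 and 6.02 in PB+RA, against 2.96, 4.74, 8.01 and 5.15 in DMSO. The RA libraries were close together and low, overlapping DMSO only at DMSO replicate 1. RA fell by 0.74 on the log2 scale (0.0303), a call lost without any of DMSO replicates 2, 3 and 4 or RA replicates 1 and 3, and PB+RA was 0.89 above RA (0.0127) and 0.15 from DMSO (0.652). The fall with RA and the difference of PB+RA from RA were also lost with the stricter or the highest peaks.

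GRIA4, whose subunit is prominent early in development, fell over its start site and first introns when RA was present. The start-site region (chr11:105479866-105486173, 40.4% GC) had an enrichment of 7.62, 8.06, 12.6 and 15 in PB, 4.05, 4.74, 6.99 and 5.60 in RA, and 3.73, 4.84, 6.13 and 7.90 in PB+RA, against 11.2, 8.58, 12.1 and 8.75 in DMSO. All RA and PB+RA libraries lay under all DMSO libraries, and PB overlapped DMSO. On the log2 scale the differences were −0.94 ± 0.24 with RA (adjusted p = 0.00823), −0.88 with PB+RA (0.00769) and 0.05 with PB (1), and PB+RA was 0.93 below PB (−0.93, 0.009). All the calls at this start site were lost with the stricter peaks. Of 19 GRIA4 regions 6 fell and none rose with RA, 6 fell and 3 rose with PB+RA, and 3 rose and none fell with PB. Falls were 6.56% of all regions with RA and 12.1% with PB+RA, and rises 18.2% with PB+RA and 4.95% with PB. Without DMSO replicate 2 no rise with PB was called, without PB+RA replicate 1 the falls with PB+RA were 3, and without DMSO replicate 1 the rises with PB+RA were 1. GC centring gave 9 falls with RA and no rise with PB or PB+RA. The 3 rises with PB+RA lay far from the start site, in the last introns. The GRIA2 start site had no peak in 2 PB libraries, 1 RA library and 3 DMSO libraries, with 1.45 to 3.46 in PB+RA, and was not called.

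**Figure D3:**
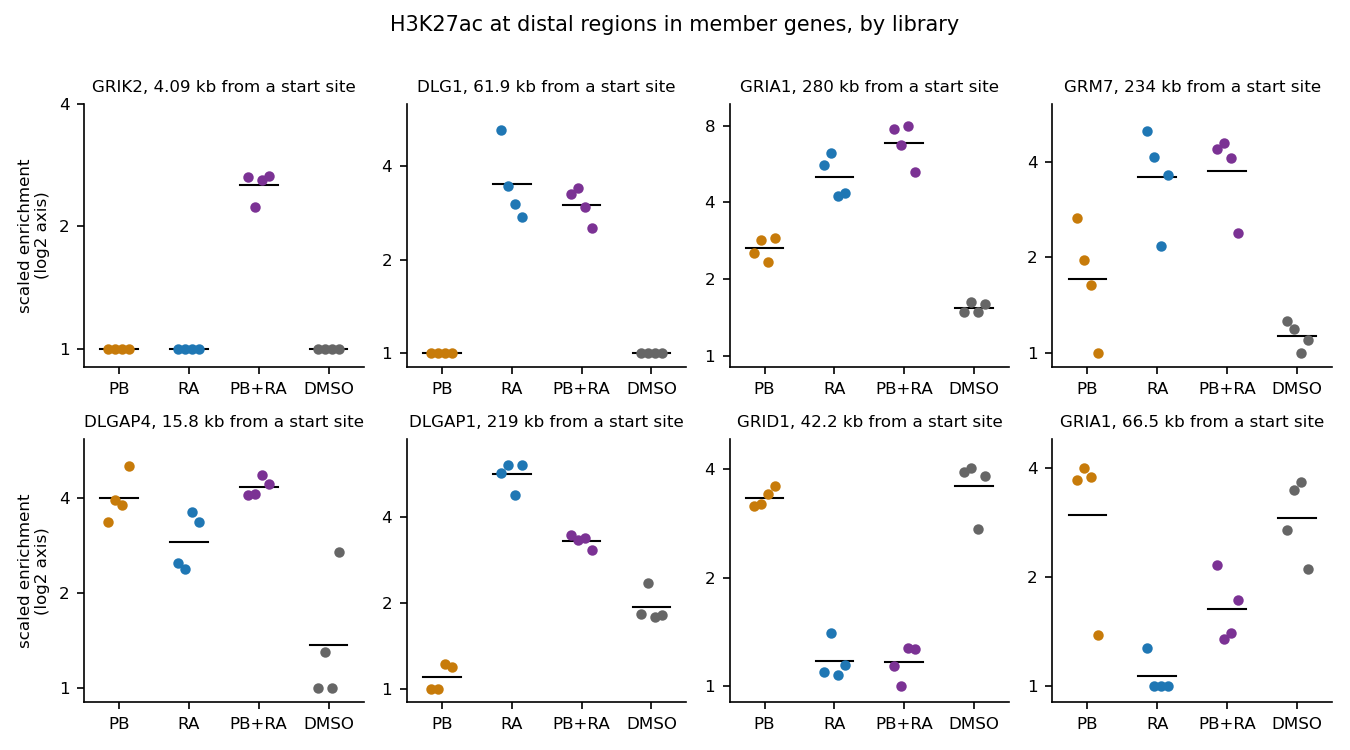
Enrichment over input (log2 axis, 1 = no peak) of 8 distal member regions in each of 4 libraries of PB, RA, PB+RA and DMSO; points are libraries and bars their mean on the log2 scale, and each panel gives the gene and the distance to its nearest own start site. At GRIK2 only the PB+RA libraries have a peak, at DLG1 only the RA and PB+RA libraries, and at GRID1 the RA and PB+RA libraries lie between 1 and 1.41.

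Kainate receptor genes, the class with the most regions, had 18 of 79 gained with PB+RA (22.8%, against 18.2% of all regions and 29.3% of AMPA regions), 15 of them at GRIK2, the gene of the GluK2 pore subunit. GRIK2 had 15 of 45 regions up and none down with PB+RA, 6 up with RA (2 without DMSO replicate 4) and none called with PB. Rises were 18.2% of all regions with PB+RA, 10.2% with RA and 4.95% with PB. Of the 45 GRIK2 regions 27 had no peak in any DMSO library, so treated libraries alone brought them into the consensus. Rises of such regions are not independent of that choice. The GRIK2 rises with PB+RA had log2 differences of 0.85 to 1.48, all at 29.9% to 37.4% GC. In a region 4093 bases from a GRIK2 start site (chr6:101827613-101829353, 37.4% GC) the enrichment was 2.65, 2.23, 2.60 and 2.66 in PB+RA, and no PB, RA or DMSO library had a peak. The log2 difference from DMSO was 1.34 ± 0.20 (adjusted p = 3.23e-05), a call lost with the stricter peaks. The PB+RA peaks alone brought this region into the consensus, and every DMSO value was the set 1. The test is thus not independent of that choice. This was the single member region called for the interaction term of the fit, at 1.34 ± 0.28 (0.0393), where 0.263% of all regions were called up and 0.194% down. That value rests on the 1 set for the 12 libraries with no peak, and the call was lost in 15 of 22 alternative analyses, leaving out any single DMSO, RA or PB library among them. In the authors' group mean concentrations, which carry no error and do not need a peak call in each library, the differences from DMSO were 1.68 in PB, 1.75 in RA and 3.42 in PB+RA, so that the pair was −0.02 from the sum of the single drugs on the log2 scale and no excess was seen.

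The GRIK2 start-site region (chr6:101844951-101854273, 42.6% GC) did not share the gain. It had 14.2, 11.8, 14.6 and 11.2 in PB, 15.6, 12.1, 12.2 and 10.4 in RA, and 14.7, 15.4, 17.7 and 16.6 in PB+RA, against 10.9, 11.1, 15.8 and 10.6 in DMSO. PB+RA libraries were the highest group and overlapped DMSO at replicate 3, with a log2 difference of 0.43 ± 0.18 (adjusted p = 0.068). Of the distal regions 11 had a peak in all 4 PB+RA libraries and in no DMSO library. The median concentration difference over the 45 regions was 0.38 in PB, 0.65 in RA and 0.87 in PB+RA, and was positive in 36, 35 and 37 of them. Centring by GC class left 7 of the 15 rises, and counting only peaks with −log10 q of at least 3 left 3. In these settings 11.8% and 6.62% of all regions rose with PB+RA.

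**Figure D4:**
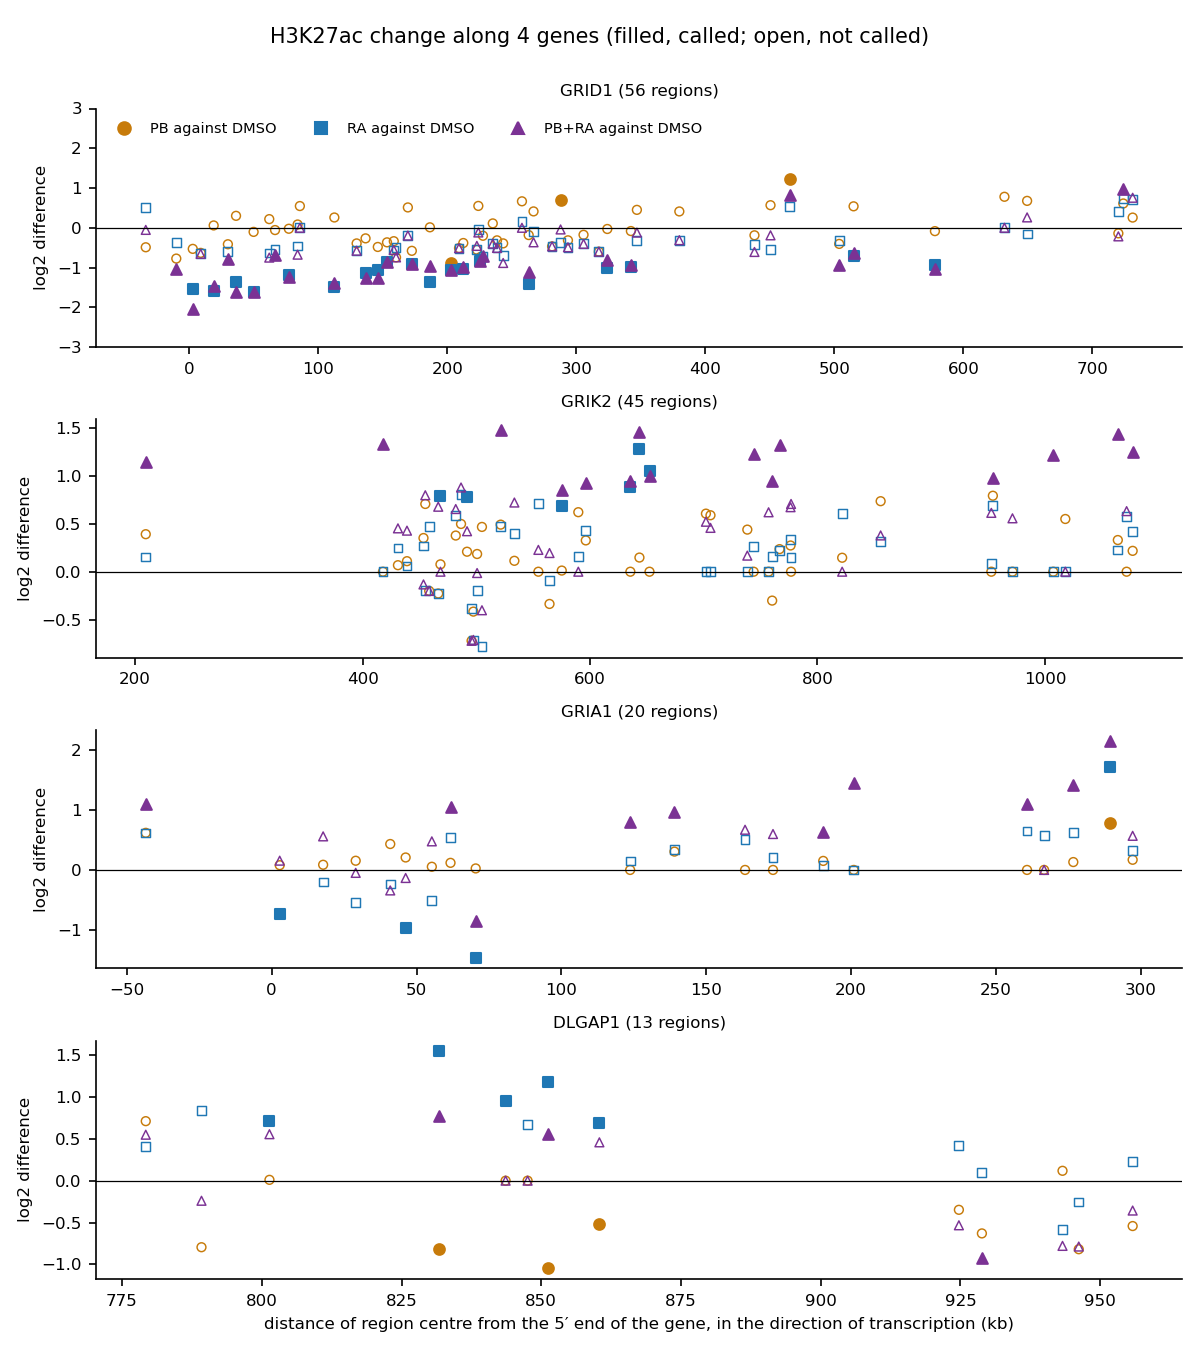
Log2 difference in enrichment from DMSO (vertical) against the distance of the region centre from the 5′ end of the gene in kb (horizontal) for GRID1 (56 regions), GRIK2 (45), GRIA1 (20) and DLGAP1 (13), in colours for PB, RA and PB+RA; filled points were called. GRID1 points for RA and PB+RA lie mostly below 0, GRIK2 points for PB+RA mostly above.

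GRIK3, a low-affinity kainate subunit gene, lost its start-site acetylation with every treatment. The region (chr1:37498013-37502783, 64.2% GC) had 2.04, 2.46, 2.90 and 1.52 in PB, 1, 1, 2.04 and 1.88 in RA, and 1, 1, 1.47 and 1.75 in PB+RA, against 3.98, 3.96, 7.39 and 5.10 in DMSO. No treated library reached the lowest DMSO library, and 2 RA and 2 PB+RA libraries had no peak. By limma the log2 differences were −1.18 ± 0.29 with PB (adjusted p = 0.0125), −1.82 with RA (0.000108) and −1.96 with PB+RA (2.67e-05). The PB call was lost with GC centring and with the highest peak in place of the mean, and the RA and PB+RA calls were kept in every alternative run. An intronic GRIK3 region (chr1:37321774-37324877) also fell with RA (−1.21) and PB+RA (−1.16) but not with PB (−0.02), a region singled out after its values were seen. Of 13 GRIK3 regions 4 fell and none rose with RA, where 6.56% and 10.2% of all regions did. All 13 had a lower mean concentration in RA than in DMSO.

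GRIK4 and GRIK5 encode the high-affinity subunits that need a GRIK1 to GRIK3 partner. The GRIK4 start-site region (chr11:120381893-120384291, 70.3% GC) had 1.33, 1.25, 1.96 and 1 in PB, 2.75, 2.73, 8.03 and 5.80 in RA, and 1.40, 2.12, 1.16 and 1.59 in PB+RA, against 2.50, 2.38, 2.45 and 8.27 in DMSO. All PB and PB+RA libraries were under all DMSO and RA libraries. The log2 differences were −1.30 ± 0.37 with PB (adjusted p = 0.0304) and −1.12 with PB+RA (0.0261), both lost with GC centring and without DMSO replicate 4, and PB+RA was 1.5 below RA (−1.5, 0.00943), which was kept. Also lost were the PB call without PB replicates 1, 2 or 4 and the PB+RA call without PB+RA replicates 1 or 3. The stricter peaks ended the PB and PB+RA calls, and the highest peak the PB+RA call. The second GRIK4 start site (chr11:120433455-120437015) and the GRIK5 start site (chr19:42572344-42575196) were not called in any comparison. Among distal regions chosen after their values were seen, a GRIK4 intron (chr11:120407644-120411907) rose with PB by 0.93 and a GRIK5 intron (chr19:42554449-42558976) fell with RA by 1.22 and with PB+RA by 1.29 on the log2 scale.

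**Figure D5:**
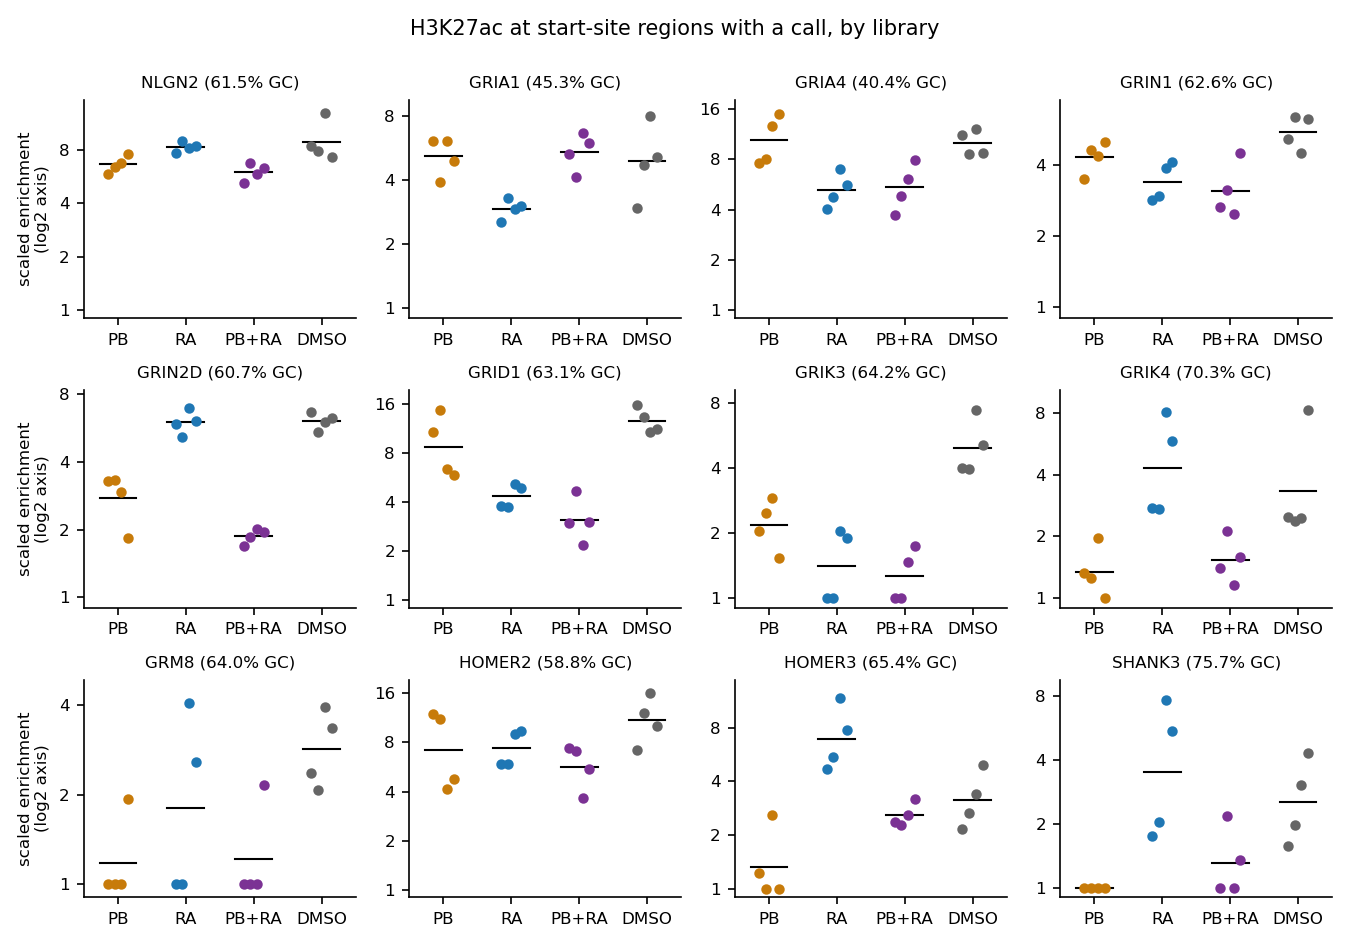
Enrichment over input (log2 axis, 1 = no peak) of 12 member start-site regions in each of 4 libraries of PB, RA, PB+RA and DMSO; points are libraries and bars their mean on the log2 scale. GRIK3 is lower in all treated groups than in DMSO, GRIN2D in PB and PB+RA, GRIA4 and GRID1 in RA and PB+RA, and HOMER3 is highest in RA.

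In the main fit NMDA receptor genes mostly lost acetylation where they changed, chiefly at GRIN1 and GRIN2C. Gains were limited to 1 region each of GRIN2B and GRIN3A for PB+RA and of GRIN2D for RA. Of 27 regions 6 fell in PB, 3 in RA and 7 in PB+RA, and none, 1 and 2 rose. The falls were 22.2%, 11.1% and 25.9% of them, against 4.47%, 6.56% and 12.1% of all regions. The median concentration difference was −0.60, −0.06 and −0.65. Without DMSO replicate 2 the PB falls were 3 and the RA falls none, and with GC centring the PB falls were 1 and the PB+RA falls 3. With that centring 2.08% of all regions fell with PB and 11.3% with PB+RA, so the PB+RA falls of the 27 were near the share over all regions.

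GRIN1 encodes the subunit that every NMDA receptor contains. Its start-site region (chr9:140030481-140036057, 62.6% GC) had 3.49, 4.60, 4.37 and 4.96 in PB, 2.83, 2.94, 3.86 and 4.09 in RA, and 2.66, 3.13, 2.48 and 4.49 in PB+RA, against 5.15, 6.37, 4.50 and 6.26 in DMSO. All RA and PB+RA libraries were below all DMSO libraries and PB overlapped DMSO replicate 3. On the log2 scale the differences were −0.70 ± 0.20 with RA (adjusted p = 0.0166) and −0.83 with PB+RA (0.0031), and −0.35 with PB was not called (0.271). The RA call was lost with the stricter or the highest peaks and without DMSO replicate 2 or RA replicate 1 or 2. The PB+RA call was lost with GC centring and with the highest peak. A region over the 3′ end of the gene (chr9:140061731-140064988, 72.5% GC, nearest start site LRRC26) had 1.87, 1.95, 1 and 1 in PB, 3.13, 3.20, 5.49 and 4.91 in RA, and 2.22, 2.98, 1 and 3.67 in PB+RA, against 3.07, 3.04, 4.08 and 5.05 in DMSO. The PB libraries lay below all RA and DMSO libraries and overlapped PB+RA, at −1.43 ± 0.33 from DMSO (0.00833). That call was lost with GC centring and with the highest peak. A strong region upstream (chr9:140020163-140025676, 55.5% GC) was lower in PB+RA (14.4, 14.0, 8.08 and 11.5) than in DMSO (16.5, 20.7, 25.9 and 18.8), a log2 difference of −0.79, and was singled out after its values were seen.

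At GRIN2D, a subunit gene of embryonic and interneuron NMDA receptors, 1 of 6 regions lost acetylation wherever PB was present. The gene had no other fall and no rise with PB or PB+RA. The region 2586 bases inside its start site (chr19:48899511-48904410, 60.7% GC) had 3.29, 3.34, 2.93 and 1.83 in PB, 5.89, 5.17, 6.94 and 6.09 in RA, and 1.68, 1.86, 2.01 and 1.94 in PB+RA, against 6.69, 5.43, 6.05 and 6.25 in DMSO. All PB and PB+RA libraries were below all RA and DMSO libraries, and RA overlapped DMSO. By limma the log2 differences were −1.14 ± 0.18 with PB (adjusted p = 0.000718), −0.02 with RA (1) and −1.70 with PB+RA (6.73e-07). PB+RA was 1.68 below RA (−1.68, 2.05e-05), and these 3 calls were kept in every alternative run. PB+RA was also 0.57 below PB (−0.57, 0.0358), which was lost without scaling and without 5 of the 8 PB and PB+RA libraries, PB replicates 1, 2 and 3 and PB+RA replicates 1 and 2. It was lost with the stricter or the highest peaks too.

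Of the other NMDA genes, GRIN2C had 3 falls with PB+RA, in regions beside and within the gene (log2 differences of −0.86, −0.99 and −1.22), while its start-site region, at 67.8% GC and with at most 2.99 in any library, was not called. A region spanning the 3′ end of GRIN2B (chr12:13588326-13590924) had 5.14, 5.29, 5.10 and 4.51 in PB+RA against 2.44, 3.52, 2.77 and 3.71 in DMSO, a log2 difference of 0.71 (adjusted p = 0.0037). An intronic GRIN3A region (chr9:104349511-104350798, nearest start site PPP3R2) had 3.07, 2.64, 3.38 and 1 in PB+RA and no peak in PB or DMSO (1.19, 0.0067). Peaks of groups given RA thus brought it into the consensus, and every DMSO value was the set 1. Its test is not independent of that choice. These GRIN2B and GRIN3A regions were the single rises of their genes. GRIN2A had 1 fall with PB, and the start site of GRIN3B, at 76.0% GC, had no peak in PB, up to 3.25 in RA, up to 1.5 in PB+RA and up to 2.45 in DMSO, with no call.

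GRID1, the delta receptor gene, held the largest block of falls. Of 56 regions 19 fell and none rose with RA, 24 fell and 2 rose with PB+RA, and 1 fell and 2 rose with PB. The falls were 33.9%, 42.9% and 1.79% of them, against 6.56%, 12.1% and 4.47% of all regions. Relative to DMSO the median concentration difference was −0.29 in PB, −1.16 in RA and −1.40 in PB+RA. Leaving out single libraries gave 15 to 22 falls with RA and 17 to 33 with PB+RA, GC centring 19 and 18, the stricter peaks 8 and 7, and the highest peak 9 and 13. Of the 56 regions 42 entered by the gene body alone, since they lay over 100 kb from any start site.

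The GRID1 start-site region (chr10:88120314-88127617, 63.1% GC) had 10.8, 14.6, 6.35 and 5.84 in PB, 3.78, 3.75, 5.16 and 4.88 in RA, and 2.96, 4.66, 2.18 and 3.0 in PB+RA, against 15.7, 13.3, 10.8 and 11.3 in DMSO. All RA and PB+RA libraries lay below all PB and DMSO libraries, and PB overlapped DMSO. The log2 differences were −0.53 ± 0.25 with PB (adjusted p = 0.186), −1.54 with RA (0.000157) and −2.03 with PB+RA (4e-06), and PB+RA was 1.5 below PB (−1.5, 0.000241). An intronic region 42.2 kb from the start (chr10:88069208-88084389, 50.7% GC) had 3.17, 3.19, 3.41 and 3.60 in PB, 1.09, 1.41, 1.07 and 1.15 in RA, and 1.13, 1, 1.27 and 1.27 in PB+RA, against 3.92, 4.04, 2.73 and 3.83 in DMSO. RA and PB+RA did not overlap PB or DMSO, with log2 differences of −1.61 ± 0.20 (6.18e-06) and −1.63 (3.23e-06), and −0.10 with PB (0.874). The RA call at this intronic region was lost with the highest peak.

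Other GRID1 regions near the start site fell with them. A wide region (chr10:87997418-88030957), singled out after its values were seen, had 8.92, 8.29, 6.11 and 6.07 in PB, 1.88, 1.92, 2.42 and 2.4 in RA, and 2.24, 2.04, 2.81 and 2.15 in PB+RA, against 6.35, 7.86, 4.98 and 5.37 in DMSO. The regions at chr10:88098566-88116937, chr10:88087755-88093085 and chr10:88043983-88054990 had log2 differences of −1.59, −1.36 and −1.2 with RA and −1.47, −1.60 and −1.23 with PB+RA, beside 0.06, 0.30 and −0.02 with PB. The exceptions lay further in. A region deep in the gene (chr10:87659406-87662924, 44.1% GC) had 2.89, 4.0, 2.46 and 3.89 in PB, 2.09, 2.02, 1.66 and 2.24 in RA, and 3.07, 2.44, 2.57 and 1.87 in PB+RA, against 1.42, 2.02, 1.26 and 1 in DMSO. PB lay above DMSO in all libraries, by 1.23 ± 0.24 (adjusted p = 0.00236), and PB+RA by 0.83 (0.0105), the second overlapping DMSO at 1 library and lost with GC centring. The PB call was lost with the highest peak, and the PB+RA call also with the stricter or the highest peaks.

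Metabotropic receptor genes had regions mainly in group III, the presynaptic type that lowers cyclic AMP. Of 46 group III regions 2 rose and 3 fell with PB (4.35% and 6.52%), 4 rose and 1 fell with RA (8.7% and 2.17%), and 11 rose and 5 fell with PB+RA (23.9% and 10.9%). Over all regions the shares were 4.95% and 4.47% with PB, 10.2% and 6.56% with RA, and 18.2% and 12.1% with PB+RA. No fall with PB was called without DMSO replicate 1 or with GC centring, and GC centring gave 6 rises with PB+RA. The rises were all at GRM7 and GRM8, and GRM4 gave only falls. GRM6, the receptor of retinal ON bipolar cells, had 1 region and GRM2 of group II had 2, with no call.

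GRM7 had 7 of 20 regions up and 1 down with PB+RA, 4 up and 1 down with RA and 2 up with PB. With GC centring it had 3 up and 3 down with PB+RA, where 11.8% and 11.3% of all regions were. Of the 20 GRM7 regions 8 had no peak in any DMSO library. In the intronic region with the largest gain (chr3:7678332-7681166, 41.5% GC) the enrichment was 2.66, 1.96, 1.64 and 1 in PB, 5.02, 4.15, 2.18 and 3.62 in RA, and 4.40, 4.57, 4.10 and 2.39 in PB+RA, against 1.26, 1.19, 1 and 1.10 in DMSO. All RA and PB+RA libraries were above all DMSO libraries, by 1.66 ± 0.29 (adjusted p = 0.000244) and 1.73 (9.54e-05) on the log2 scale, and PB+RA was 1.13 above PB (0.00769). The RA call and the difference from PB were lost with the highest peak. A second intronic region (chr3:7606170-7608118, 36.4% GC) had 2.44, 2.56, 3.71 and 3.22 in PB, 2.48, 2.23, 1.86 and 1.49 in RA, and 3.10, 3.74, 1.55 and 1.98 in PB+RA, against 1, 1.72, 1.36 and 1 in DMSO. PB was above DMSO in every library, by 1.25 ± 0.27 (0.00599), a call lost with the stricter peaks. PB+RA differed by 0.99 (0.00866), with replicate 3 below DMSO replicate 2 and the call lost with GC centring and with the stricter peaks. The GRM7 start site (chr3:6902320-6905914) was not called, with 2.42 to 4.03 in RA against 1.47 to 2.44 in DMSO (0.74 ± 0.26, 0.0569).

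At GRM8 the start site and the introns went opposite ways. The start-site region (chr7:126892105-126894190, 64.0% GC) had 1, 1, 1 and 1.93 in PB, 1, 1, 4.06 and 2.58 in RA, and 1, 1, 1 and 2.16 in PB+RA, against 2.36, 2.08, 3.94 and 3.37 in DMSO. A peak was found in 1 PB library, 2 RA libraries and 1 PB+RA library, against all 4 DMSO libraries, and PB+RA replicate 4 overlapped DMSO. On the log2 scale the differences were −1.27 ± 0.39 with PB (adjusted p = 0.0444) and −1.23 with PB+RA (0.021), both lost with GC centring, without DMSO replicate 3 or 4, and without PB+RA replicates 1, 2 or 3. Both were lost with the stricter or the highest peaks too. The PB call was also lost without DMSO replicate 1 or 2 or PB replicates 1, 2 or 3. In its introns 4 regions rose with PB+RA, by 0.84 to 1.63 on the log2 scale, and none of them was called with PB or RA. GRM4 had 2 falls with PB and 3 with PB+RA (1 without DMSO replicate 1, none with GC centring), and all 15 of its regions had lower mean concentrations than DMSO in each treatment. The GRM4 region with the highest mean concentration at a start site (chr6:34111373-34113690, 70.8% GC) had no peak in 2 PB libraries, 1 RA library, 1 PB+RA library and 2 DMSO libraries, and was not called.

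Among the MAGUK scaffolds, DLG1 (SAP97, which carries AMPA receptors through the secretory pathway) held 22 of 26 regions, and DLG3 and DLG4 (PSD-95) 2 each. An exon-overlapping DLG1 region far downstream of its start site (chr3:196846272-196848619, 37% GC, 61.9 kb away) had 5.22, 3.46, 3.02 and 2.74 in RA and 3.24, 3.4, 2.95 and 2.52 in PB+RA, and no PB or DMSO library had a peak. By limma the log2 differences were 1.81 ± 0.22 with RA (adjusted p = 5.23e-06) and 1.59 with PB+RA (1.31e-05), and both were kept in every alternative run. The RA and PB+RA peaks alone brought this region into the consensus, and all DMSO values were the set 1. These tests are thus not independent of that choice. A wide region over an inner DLG1 start site (chr3:196885924-196920293, 35.4% GC) had 5.35, 5.72, 5.79 and 5.01 in PB, 3.11, 2.81, 2.90 and 2.99 in RA, and 2.97, 3.58, 3.95 and 3.56 in PB+RA, against 4.26, 3.18, 6.12 and 3.30 in DMSO. PB was above all RA and PB+RA libraries and overlapped DMSO, and none differed from DMSO by the test. PB+RA was 0.64 below PB (−0.64, 0.0182), a call lost without scaling, with the highest peak or without PB+RA replicate 1.

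The first DLG1 start site (chr3:197023530-197026947, 54.7% GC), singled out after its values were seen, had 9.77, 9.69, 7.97 and 7.50 in PB, 13.1, 13.3, 16.4 and 11.8 in RA, and 8.12, 12.2, 3.44 and 7.87 in PB+RA, against 15.3, 13.4, 23.2 and 12.4 in DMSO. PB and PB+RA were below DMSO in all libraries, by −1.11 on the log2 scale with PB+RA (adjusted p = 0.0033) and −0.85 with PB, which was not called (0.051). The strongest DLG4 start-site region (chr17:7114522-7125688) is shared with ACADVL, whose start is nearer, and its 5.49 to 7.06 in PB, 6.41 to 7.51 in RA and 5.56 to 6.95 in PB+RA overlapped the 6.01 to 8.88 in DMSO.

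SHANK genes encode the deepest scaffold layer, joined to actin. The SHANK2 start site (chr11:70505880-70510806, 58.7% GC) was level, with 9.24, 10.1, 9.48 and 10.5 in PB, 9.54, 7.48, 8.16 and 8.57 in RA, and 9.60, 10.8, 11.2 and 9.82 in PB+RA, against 9.49, 9.95, 9.40 and 10.7 in DMSO. Only RA leaned lower, at −0.23 ± 0.14 (adjusted p = 0.286). Around it 5 of the 34 SHANK2 regions rose and 4 fell with PB+RA, not above the 18.2% and 12.1% of all regions. There were 2 rises without DMSO replicate 3, 1 fall without DMSO replicate 1 and no fall with GC centring. Among the rises was an upstream start site (chr11:70544195-70546546) with 2.97, 3.52, 3.25 and 2.46 in PB+RA against 1, 1.18, 1.43 and 1.76 in DMSO (1.2, 0.003). The first SHANK3 start site (chr22:51111715-51113815, 75.7% GC) had no peak in any PB library, 1.75, 2.04, 7.72 and 5.47 in RA, and 1, 2.19, 1 and 1.36 in PB+RA, against 1.57, 1.98, 3.06 and 4.31 in DMSO. PB fell by 1.34 ± 0.39 on the log2 scale (0.0344), and PB+RA was 1.42 below RA (−1.42, 0.0183). The PB call was lost with GC centring and without any single PB library or DMSO replicate 3 or 4, and the other with GC centring and without RA replicate 3 or 4 or PB+RA replicate 1 or 3. With the stricter peaks neither was called, and with the highest peak the difference from RA was lost. The inner SHANK3 start site (chr22:51165211-51172961) and the SHANK1 start site (76.2% GC) were not called.

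HOMER proteins tie group I metabotropic receptors to internal calcium stores. The HOMER3 start-site region (chr19:19050413-19052897, 65.4% GC) was low in PB and high in RA, with 1.24, 1, 2.59 and 1 in PB, 4.68, 5.47, 11.7 and 7.77 in RA, and 2.39, 2.27, 2.60 and 3.18 in PB+RA, against 2.17, 2.67, 3.38 and 4.92 in DMSO. RA overlapped DMSO only at RA replicate 1 and DMSO replicate 4, and PB only at PB replicate 3. The log2 differences were −1.23 ± 0.31 with PB (adjusted p = 0.0134), 1.15 with RA (0.0106) and −0.28 with PB+RA (0.511), and PB+RA was 1.42 below RA (−1.42, 0.00351) and 0.95 above PB (0.0332). The PB call was lost with GC centring and without DMSO replicate 4 or PB replicate 2, the RA call without RA replicate 3, and the difference from PB without PB replicates 1, 2 or 4 or PB+RA replicates 1, 3 or 4. The RA call and the difference of PB+RA from RA were lost with the highest peak.

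The HOMER2 start site (chr15:83619635-83622397, 58.8% GC) had 12, 11.1, 4.18 and 4.76 in PB, 5.90, 5.87, 8.98 and 9.45 in RA, and 7.38, 7.07, 3.68 and 5.47 in PB+RA, against 7.23, 12.1, 16.1 and 10.1 in DMSO. PB+RA fell by 0.94 ± 0.31 on the log2 scale (adjusted p = 0.026), overlapping DMSO replicate 1, with the call lost with GC centring and without DMSO replicates 2 or 3 or PB+RA replicates 3 or 4. It was lost with the stricter peaks as well. The second HOMER2 start site (chr15:83516276-83520915), chosen after its values were seen, instead rose with PB to 4.89, 5.07, 4.35 and 3.92 against 2.52, 2.69, 2.4 and 2.81 in DMSO (0.80, 0.01). HOMER1, the activity-regulated member, had a single start-site region with 2.55 to 3.09 in PB, 3.24 to 7.62 in RA and 2.00 to 6.80 in PB+RA against 2.19 to 6.14 in DMSO, and no call.

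DLGAP genes encode the linkers between MAGUK and SHANK proteins. In an upstream DLGAP4 intron (chr20:34977782-34979758, 55.3% GC) the enrichment was 3.36, 3.93, 3.79 and 5.06 in PB, 2.49, 2.38, 3.60 and 3.35 in RA, and 4.11, 4.12, 4.74 and 4.42 in PB+RA, against 1, 1.30, 1 and 2.71 in DMSO. PB and PB+RA were above DMSO in every library, and RA overlapped DMSO replicate 4. On the log2 scale the differences were 1.54 ± 0.25 with PB (adjusted p = 0.000744), 1.08 with RA (0.00386) and 1.66 with PB+RA (3.59e-05). The PB and RA calls were lost with the stricter peaks. The DLGAP4 start site with the highest mean concentration (chr20:35088243-35098793) had 8.74 to 10.8 in PB, 6.84 to 9.40 in RA and 7.51 to 8.62 in PB+RA against 5.76 to 9.17 in DMSO and was not called, nor was the DLGAP3 start site (68.1% GC). DLGAP4 had 5 of 30 regions up and 3 down with PB+RA, with 3 up without PB+RA replicate 3. Neither count was above the 18.2% and 12.1% of all regions.

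DLGAP1 had 13 regions, all within the gene body, 8 over 100 kb from any start site and 5 nearest to TGIF1. With RA 5 rose and none fell, with PB 3 fell and none rose, and with PB+RA 2 rose and 1 fell. Of all regions 10.2% rose with RA, 4.47% fell with PB, and 18.2% rose and 12.1% fell with PB+RA. With the highest peak in place of the mean 1 rose with RA and none fell with PB. In the region at chr18:3601551-3606493, singled out with the next after their values were seen, the enrichment was 1.28, 1.24, 1 and 1.25 in PB, 5.48, 6.44, 5.38 and 5.04 in RA, and 4.26, 3.46, 3.41 and 3.32 in PB+RA, against 2.32, 2.42, 2.63 and 2.44 in DMSO. The 4 groups did not overlap, with log2 differences of −1.05 (adjusted p = 0.00069), 1.18 (3.1e-05) and 0.55 (0.016). The region at chr18:3620938-3626388 had 1, 1, 1.23 and 1.2 in PB, 5.71, 6.12, 4.80 and 6.12 in RA, and 3.48, 3.34, 3.38 and 3.07 in PB+RA, against 1.84, 2.36, 1.79 and 1.83 in DMSO. The groups again did not overlap, at −0.82 (0.0053), 1.54 (2.3e-06) and 0.77 (0.0019).

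Neuroligin genes had 6 regions. At the NLGN2 start site (chr17:7306080-7309850, 61.5% GC), the neuroligin of inhibitory synapses, the enrichment was 5.84, 6.37, 6.77 and 7.59 in PB, 7.66, 8.94, 8.23 and 8.35 in RA, and 5.21, 6.73, 5.82 and 6.35 in PB+RA, against 8.37, 7.87, 12.9 and 7.32 in DMSO. PB+RA was below DMSO in all libraries, by −0.57 ± 0.17 on the log2 scale (adjusted p = 0.0156), a call lost with GC centring and without DMSO replicate 3 or PB+RA replicate 1. The NLGN1 start site (66.4% GC) had a peak in RA replicates 3 and 4 and in DMSO replicates 3 and 4 only, and was not called. NLGN1 and NLGN3 each had 1 distal region up with PB+RA.

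Set against the single drugs, PB+RA had 23 member regions above and 16 below RA (5.72% and 3.98%), where 8.9% and 6.16% of all regions were called. It had 39 above and 37 below PB (9.7% and 9.2%), where 11.2% and 5.54% were called. Of the rises over RA, 10 lay at GRIK2 and 4 at GRIA1. Of the falls below PB, 16 lay at GRID1 and 8 at GRIA4, and 13 of the rises over PB lay at GRIK2 and 6 at GRIA1. The falls below PB numbered 21 without scaling, 59 with GC centring, 24 without PB+RA replicate 1 and 22 without PB+RA replicate 2. Counting peaks alone, 22 member regions (5.47%) had a peak in all 4 PB+RA libraries and no DMSO library, against 5.66% of all regions, and 7 (1.74%) the reverse, against 1.09%. The gained regions were 11 at GRIK2, 5 at GRIA1, 2 at GRM7 and 1 each at GRIK4, GRM8, DLG1 and DLGAP4, and the lost ones 4 at GRID1 and 1 each at GRIA4, GRM7 and DLGAP4. With RA 8 were gained and 6 lost (1.99% and 1.49%, against 2.93% and 0.905% of all regions), and with PB none was gained and 3 were lost (0.746%), against 0.84% and 0.521%.

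Further lists of other genes were set beside the members. Partners of the glutamate synapse (auxiliary subunits, anchoring and signalling proteins, adhesion partners and glutamate supply) had 378 regions at 41 of 48 genes, of which 13 rose and 17 fell with PB (3.44% and 4.5%, against 4.95% and 4.47% of all regions), 26 and 28 with RA (6.88% and 7.41%, against 10.2% and 6.56%), and 41 and 62 with PB+RA (10.8% and 16.4%, against 18.2% and 12.1%). Among these the auxiliary subunits of AMPA receptors had 6 of 65 regions up (9.23%) and 18 down (27.7%) with PB+RA. Genes of the inhibitory postsynapse had 137 regions at 17 of 23 genes, of which 13 rose and 4 fell with PB (9.49% and 2.92%), 2 and 28 with RA (1.46% and 20.4%), and 23 and 33 with PB+RA (16.8% and 24.1%). No region was shared with the members.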

How the data were processed

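H3K27ac ChIP-seq libraries (16, each with an input library that has no values here) were prepared by the authors from 4 groups of 4 replicate cultures, described in the study as biological replicates. Per the study's methods and the submitters' processing notes, reads were trimmed with fastp 0.12.4, aligned to hg19 with Bowtie2 2.4.4, and broad peaks were called against input with MACS2 2.2.7.1. The deposited peak lists give for each library a fold enrichment over input (a ratio) and a −log10 q value for each peak. The deposited tables of DiffBind 3.4 give 92108 consensus regions (peaks in at least 2 of 4 replicates of a condition) with the authors' mean log2 concentration of each group. Their fold, p-value and FDR columns hold the authors' own comparisons and were not used. Read counts, and so depth, are not given in these files, and the number of libraries limits the precision.

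Regions on reference chromosomes (92092, with 16 others left out) were assigned with 89217 protein-coding start sites of GENCODE on hg19. Start-site regions lay within 3 kb of a start site of their member. Enrichment per library was averaged over the bases of a region (1 under no peak), and its excess over 1 was scaled to a common median over the 26499 regions with a peak in all 16 libraries. The log2 values were fitted once for all libraries with limma 3.58.1 (empirical Bayes with trend, R 4.3.3) and Benjamini-Hochberg adjustment over all regions. Python 3.11.15, pandas 2.3.3, numpy 2.4.6 and pysam 0.24.0 did the rest. Of the 5 endothelial markers PECAM1 was not found in the annotation used.

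Named in full were the start-site region of each member with the highest mean concentration, the 3 called regions with the largest difference in each direction of each comparison with DMSO (at most 1 a gene), and up to 3 regions called for the interaction. The members and lists were chosen with earlier results of these data known. Alternatives covered scaling, a peak filter, a −log10 q of at least 3, the highest peak, GC centring, the fold minimum, the assignment of regions, the replicate block and each library left out.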

Additional observations from a re-analysis of the deposited data

Results flagged for a closer look

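In 43 named member regions each group of 4 libraries was examined for a library standing far from the others, by Dixon's ratio against its critical value for 4 values. Of 172 groups 19 had such a library, and in 11 of the 19 the other 3 libraries had no peak. A group of that kind always passes the critical value, and a group with 4 equal values never can. The count can therefore not be set against a chance rate. Where the region was called in some comparison, the enrichments set apart were 2.73 in DMSO replicate 3 at the GRID1 intron, 8.27 in DMSO replicate 4 at the GRIK4 start site, 2.39 in PB+RA replicate 4 at the GRM7 intron, 1.38 in PB replicate 4 and 1.27 in RA replicate 1 at the GRIA1 intron that fell with RA, 2.23 in PB+RA replicate 2 at the GRIK2 region gained with PB+RA, and 1.93 in PB replicate 4 and 2.16 in PB+RA replicate 4 at the GRM8 start site. At start sites with no call they were 15.8 in DMSO replicate 3 at GRIK2, 1.43 in DMSO replicate 3 at the inner SHANK3 start, 2.59 in DMSO replicate 4 at GRIA2, 4.25 in PB replicate 3 at GRM2, 2.24 at SHANK1, 1.47 at GRM6, 1.27 at NLGN3 and 1.14 at GRIN2C in the same PB replicate 3, 2.19 in RA replicate 3 at GRM6, and 1.66 at GRIN2C and 1.5 at GRIN3B in PB+RA replicate 4. DMSO replicates 3 and 4, PB replicate 3 and PB+RA replicate 4 thus gave most of them, and PB+RA replicate 4 had more peaks in GC-rich regions than the rest of its group.

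The GRIK2 region at chr6:101827613-101829353 was called for the interaction of PB and RA (1.34 ± 0.28 on the log2 scale, limma adjusted p = 0.0393), with a peak in 4 of 4 PB+RA libraries and in none of the other 12, which were all set to 1. Those PB+RA peaks alone brought the region into the consensus. The call was lost in 15 of 22 alternatives, the replicate block among them. The authors' group mean concentrations gave an effect of RA of 1.73 with PB and 1.75 without it, so a difference between the drug contexts was not seen in them.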

How the results depend on the processing

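The 59 calls at named regions were recomputed under 22 alternatives. Of 1298 values 1143 stayed called in the same direction, 155 were no longer called and none turned, and 19 calls were kept under all of them. The stricter peak threshold ended 26 calls, the highest peak 22, GC centring 14, values without scaling 5, the replicate block 1 and the filter on peaks none. Counts below are rises and falls of member regions, against 16 and 23 with PB, 26 and 44 with RA, 69 and 65 with PB+RA, 23 and 16 for PB+RA against RA, 39 and 37 for PB+RA against PB, and 1 and 0 for the interaction.

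Without scaling 7 rose with PB, 21 fell against PB and none was called for the interaction, whose median over all regions moved to 0.147. With peaks of −log10 q of at least 3 the counts were 4 and 6 with PB, 7 and 20 with RA, 23 and 23 with PB+RA, 5 and 6 against RA, 14 and 10 against PB, and 0 rises for the interaction. With the highest peak they were 8 and 7 with PB, 18 and 16 with RA, 44 and 37 with PB+RA, 10 and 12 against RA, 19 and 23 against PB, and 3 and 1 for the interaction. With a fold minimum of 1 they were 6 and 12, 13 and 21, 32 and 24, 10 and 9, and 24 and 16 in the same order of comparisons without the interaction. Assigned by the nearest start site alone there were 6 rises with PB, 15 and 26 with RA, 32 and 42 with PB+RA, 12 rises against RA, and 18 and 22 against PB. Within 10 kb there were 1 and 10, 2 and 9, 7 and 19, 3 and 6, and 5 and 6. The filter on peaks in at least 3 of 4 libraries gave 3 and 1 for the interaction. Fewer regions, or fewer peaks, entered the last settings by construction, and for the others the cause was not tested.

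Centring within GC classes gave 20 and 6 with PB and 36 and 59 against PB, so that rises were 76.9% of PB calls and 37.9% of calls against PB, where they were 41.0% and 51.3%. Without scaling these shares were 25.9% and 66.1%. The start-site median concentration difference became 0.18 with PB and 0.28 with PB+RA, against −0.54 and −0.42.

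Leaving out each library in turn gave 10 to 18 rises and 10 to 33 falls with PB, 18 to 34 and 33 to 52 with RA, 58 to 69 and 49 to 84 with PB+RA, 20 to 28 and 11 to 21 against RA, 30 to 41 and 22 to 40 against PB, and 0 to 3 and 0 to 1 for the interaction. The PB falls were 14, 12 and 10 without DMSO replicates 1, 2 and 4, and 12, 11, 13 and 12 without PB replicates 1, 2, 3 and 4. The interaction call was absent without any single DMSO, RA or PB library.

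Member regions peaked in 2 or more libraries of a group numbered 255 in PB, 263 in RA, 267 in PB+RA and 280 in DMSO. Where the peak had to cover 50% of the region they numbered 126, 138, 142 and 169, and with the stricter peak threshold 119, 110, 119 and 120.

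Libraries of different groups share replicate numbers. Of 24 pairs of libraries with the same number, 15 had deviations correlated above 0.1 (median 0.12, against −0.10 in 72 pairs of other numbers). Of 16 libraries, 9 correlated best with their own number. Deviations thus tended to be shared within a number. Across groups, replicates 1 and 2 mostly correlated positively with each other, as did replicates 3 and 4. Correlations between these sets were mostly negative. The main fit held no term for the replicate number, and the source of this structure was not tested. With the replicate block the counts were 20 and 25 with PB, 34 and 48 with RA, 76 and 73 with PB+RA, 29 and 21 against RA, 43 and 42 against PB, and 0 and 0 for the interaction.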
